A study of Mus musculus with 6 samples.

Results

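The genes described here are 8 genes of hepatic glucose production, chosen by name: Pcx, Pck1, Fbp1, G6pc and Slc37a4, which encode the committed steps of gluconeogenesis, and Gcgr, Crtc2 and Ppargc1a, which regulate them. All 8 were among the 15953 genes of the deposited table, and all 8 passed the filter on low counts that left 12033 genes for testing. They were measured by RNA sequencing of messenger RNA in 6 mouse livers of the C57BL/6 strain, 3 labelled as Cgref1 knockout and 3 labelled as wild type. Cgref1 encodes a secreted EF-hand protein, and the comparison asked how the liver transcriptome differs without it. Each genotype has 3 livers, which the labels call biological replicates; hepatocyte is the labelled cell type, whereas the series design speaks of liver tissue. How the knockout was made, the age and sex of the mice, their feeding state and the time of day at which livers were taken are not stated in the labels or the table.

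Gluconeogenesis is the route by which the liver makes glucose from lactate, amino acids and glycerol when food is withdrawn. It runs along the glycolytic enzymes in reverse, except at the irreversible steps, which have enzymes of their own. Glucagon, released in fasting, acts through its receptor and cyclic AMP on CREB and its coactivator CRTC2, glucocorticoids act alongside it, and insulin, released after a meal, keeps the transcription factor FOXO1 out of the nucleus. The messenger RNAs of Pck1 and G6pc are known to follow these hormones within hours, while those of Fbp1 and Pcx move more slowly.

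The promoters of Pck1 and G6pc, the genes with the widest differences between livers, are shown with those of Slc37a4 and Ppargc1a. Those of Pck1, Slc37a4 and Ppargc1a carry the core letters of the cyclic AMP response element, though not the full element. Each line gives the 250 bases before the annotated start, from RefSeq on build GRCm38.p6, with the core letters TGACG or, for the other strand, CGTCA in capitals.
Pck1, chr2:173152823-173153072, plus strand: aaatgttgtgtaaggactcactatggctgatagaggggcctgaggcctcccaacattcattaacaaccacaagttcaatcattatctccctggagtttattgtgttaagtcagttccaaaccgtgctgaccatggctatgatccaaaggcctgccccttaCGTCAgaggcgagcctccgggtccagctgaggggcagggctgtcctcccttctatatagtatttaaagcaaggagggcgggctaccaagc
G6pc, chr11:101367466-101367715, plus strand: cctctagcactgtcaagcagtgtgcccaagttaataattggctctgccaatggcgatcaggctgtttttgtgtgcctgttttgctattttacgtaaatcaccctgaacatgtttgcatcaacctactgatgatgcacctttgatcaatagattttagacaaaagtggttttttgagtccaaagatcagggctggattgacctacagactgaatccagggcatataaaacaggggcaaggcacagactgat
Slc37a4, chr9:44396696-44396945, plus strand: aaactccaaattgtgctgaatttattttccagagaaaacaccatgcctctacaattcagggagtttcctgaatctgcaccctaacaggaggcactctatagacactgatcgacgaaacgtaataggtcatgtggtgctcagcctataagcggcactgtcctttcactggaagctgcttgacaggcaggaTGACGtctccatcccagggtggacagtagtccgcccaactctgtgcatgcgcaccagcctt
Ppargc1a, chr5:51567726-51567975, minus strand: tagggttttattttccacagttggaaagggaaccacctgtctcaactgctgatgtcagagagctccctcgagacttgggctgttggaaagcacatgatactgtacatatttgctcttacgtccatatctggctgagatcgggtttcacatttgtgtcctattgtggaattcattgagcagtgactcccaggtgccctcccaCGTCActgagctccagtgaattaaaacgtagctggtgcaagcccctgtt
RefSeq promoter windows of 300 bases, 250 before and 50 after a start, were matched for 7 of the 8 genes, with 10 windows in all. The core TGACG, searched on both strands, lay 90 bases before the RefSeq start of Pck1. It lay 61 bases before the RefSeq start used for the printed Slc37a4 window and 49 bases before the one used for Ppargc1a. A further window of Slc37a4, which shares bases with the printed one, held the same site and another on the opposite strand 82 bases before its start. Slc37a4 starts at 44396857 in the deposited table and at 44396852 in GENCODE M21, and by either start both sites lie inside the gene. The printed Ppargc1a window lies inside the span that the deposited table gives that gene. The core stood in 4 of the 10 windows, and in 20.8% of all 32851 windows. The full element TGACGTCA (in 1.79% of all windows, and containing the core), the FOXO motif TGTTTAC (3.65%), the insulin response motif TTGTTTTG (2.51%) and the short glucocorticoid motif TGTTCT (19.0%) were in 0 of the 10 windows. Only these exact letters were searched, so variant forms of an element were not counted and may be present. These matches describe letters in a window, and binding was not measured.

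Library totals were 17649817 to 18366443 estimated counts in the knockout-labelled livers and 17627734 to 18185837 in the wild type livers. Cgref1 itself had 7, 12 and 10 counts in the knockout-labelled livers, against 7, 7 and 19 in the wild type livers, so the transcript sat near the detection limit and the genotype rests on the labels. Its log2 fold change was -0.11 (95% confidence interval -1.23 to 1.01; edgeR adjusted p 0.994). Hepatocyte markers (12 of 13 listed genes in the table) summed to between 99882 and 127341 CPM (read counts scaled to library size) in knockout-labelled livers and between 98947 and 128996 CPM in wild type livers. All 12 Kupffer cell markers were detected as well, so the samples held cells other than hepatocytes. They summed to 397.4 to 428.2 CPM in knockout-labelled livers and 317.1 to 349.3 CPM in wild type livers. Every knockout-labelled liver thus lay above every wild type liver in this sum, a difference that was not tested. In such bulk samples fewer cells of a type and less RNA per cell cannot be told apart. Kidney, which also makes glucose, left little trace: 3 of 14 kidney markers were in the table, and these summed to 2 to 9 counts in knockout-labelled livers and 2 to 9 counts in wild type livers.

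None of the 8 genes differed between the genotypes past the threshold. The enzyme and transporter genes Fbp1, Pcx and G6pc had log2 fold changes, knockout-labelled over wild type, between -0.21 and -0.01, Slc37a4 had 0.29 and Pck1 had 0.90, while the regulators lay between -0.08 and 0.14. What set Pck1 and G6pc apart was the difference among livers of the same genotype, for Pck1 mainly among the wild type livers. Tested with edgeR (quasi-likelihood, Benjamini-Hochberg adjustment over all genes), 0 of the 8 passed at 0.05, against 0.00831% of the genes tested (1 of 12033). DESeq2 and limma-voom also called 0 of the 8. At an unadjusted p under 0.05 edgeR gave 0 of the 8, against 5.15% of all genes tested. The median log2 fold change of the 8 was 0.02, with 4 positive and 4 negative, and that of all genes tested was -0.0022. Since the labels do not say that each liver came from its own litter or cage, p-values here measure no more than the variation among these 6 livers.

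**Figure D1:**
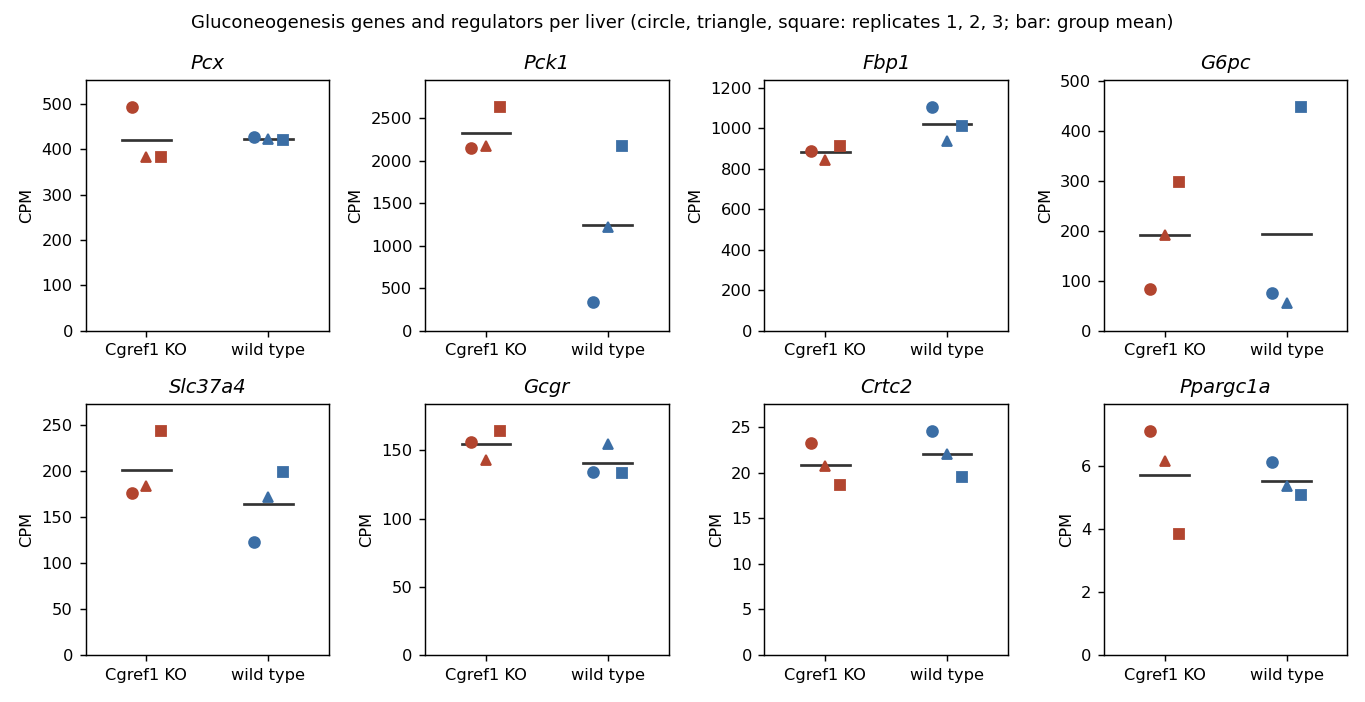
CPM of each gene (vertical axes, each from 0) in the 3 knockout-labelled livers (left, red) and the 3 wild type livers (right, blue); circles, triangles and squares are replicates 1, 2 and 3 and the bar is the group mean. Pck1 spans 336.8 to 2176 CPM in wild type livers and 2157 to 2639 CPM in knockout-labelled livers, and G6pc spans 83.1 to 297.4 CPM in knockout-labelled livers and 54.7 to 448.9 CPM in wild type livers.

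Pyruvate carboxylase, encoded by Pcx (chr19:4510472-4621828, GRCm38), carboxylates pyruvate to oxaloacetate in mitochondria and so commits carbon from lactate and alanine to the pathway. Pcx stood at 494.2, 382.9 and 384.0 CPM in knockout-labelled replicates 1, 2 and 3 and at 427.3, 422.1 and 420.4 CPM in wild type replicates 1, 2 and 3. The wild type livers were within 1.02-fold of each other and lay inside the range of the knockout-labelled livers, where replicate 1 was the highest of the 6. The log2 fold change was -0.01 (SE 0.12, 95% confidence interval -0.27 to 0.26; edgeR adjusted p 0.995).

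Phosphoenolpyruvate carboxykinase, the cytosolic enzyme encoded by Pck1 (chr2:173153073-173159254), turns oxaloacetate into phosphoenolpyruvate, and its amount is set largely by transcription. Pck1 stood at 2157, 2179 and 2639 CPM in the knockout-labelled livers and at 336.8, 1216 and 2176 CPM in the wild type livers. All 3 knockout-labelled livers sat close together, and wild type replicate 3 fell between them, so the groups overlapped, while wild type replicate 1 was the lowest of the 6. The highest and lowest livers differed 1.22-fold within the knockout-labelled group and 6.46-fold within the wild type group; whether the genotypes differ in this spread was not tested. The means were 2325 ± 272 CPM in knockout-labelled livers and 1243 ± 920 CPM in wild type livers (SD, n = 3 each), and the log2 fold change was 0.90 (SE 0.68, interval -0.89 to 2.70; edgeR adjusted p 0.988). This value rested on single wild type livers, being 0.45 without wild type replicate 1 and 1.57 without wild type replicate 3. In the rat, cyclic AMP is known to act on this gene through a CRE close to its start; the letters found in the mouse promoter are those in capitals above.

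Fructose bisphosphatase, encoded by Fbp1 (chr13:62864753-62889038), removes a phosphate from fructose bisphosphate and opposes phosphofructokinase. Fbp1 stood at 886.4, 844.1 and 915.2 CPM in the knockout-labelled livers and at 1108, 937.6 and 1012 CPM in the wild type livers. Every knockout-labelled liver lay below every wild type liver, and Fbp1 was the only 1 of the 8 genes whose groups did not overlap; in 4.63% of all genes tested the groups were likewise separate with the knockout-labelled livers lower, in 6.19% they were separate with those livers higher, and in 10.8% in either direction. The log2 fold change was -0.21 (SE 0.10, interval -0.44 to 0.02; edgeR adjusted p 0.973). Wild type replicate 1, the liver with the least Pck1, had the most Fbp1.

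The last step takes place in the endoplasmic reticulum, where the transporter encoded by Slc37a4 (chr9:44396857-44403049) brings in glucose phosphate and the phosphatase encoded by G6pc (chr11:101367716-101377903) releases free glucose; loss of either protein causes glycogen storage disease. G6pc stood at 83.1, 191.3 and 297.4 CPM in the knockout-labelled livers and at 75.3, 54.7 and 448.9 CPM in the wild type livers. Wild type replicate 3 was the highest of all and wild type replicate 2 the lowest, and the range of the knockout-labelled livers lay wholly inside that of the wild type livers. The highest and lowest livers differed 3.58-fold within the knockout-labelled group and 8.20-fold within the wild type group. The log2 fold change was -0.02 (SE 1.03; edgeR adjusted p 0.999), with an interval of -2.76 to 2.73 that leaves room for a large difference in either direction. It rested on single livers, being 1.56 when wild type replicate 3 was left out, -0.45 when wild type replicate 2 was, -0.40 when wild type replicate 1 was, 0.34 when knockout-labelled replicate 1 was and -0.49 when knockout-labelled replicate 3 was.

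Slc37a4 stood at 175.8, 183.3 and 243.5 CPM in the knockout-labelled livers and at 123.3, 171.4 and 198.6 CPM in the wild type livers. Replicate 3 was the highest liver of each group, wild type replicate 1 was the lowest of the 6, and the groups overlapped. The log2 fold change was 0.29 (SE 0.19, interval -0.15 to 0.73; edgeR adjusted p 0.984), and it was 0.13 without knockout-labelled replicate 3, 0.11 without wild type replicate 1 and 0.44 without wild type replicate 3.

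**Figure D2:**
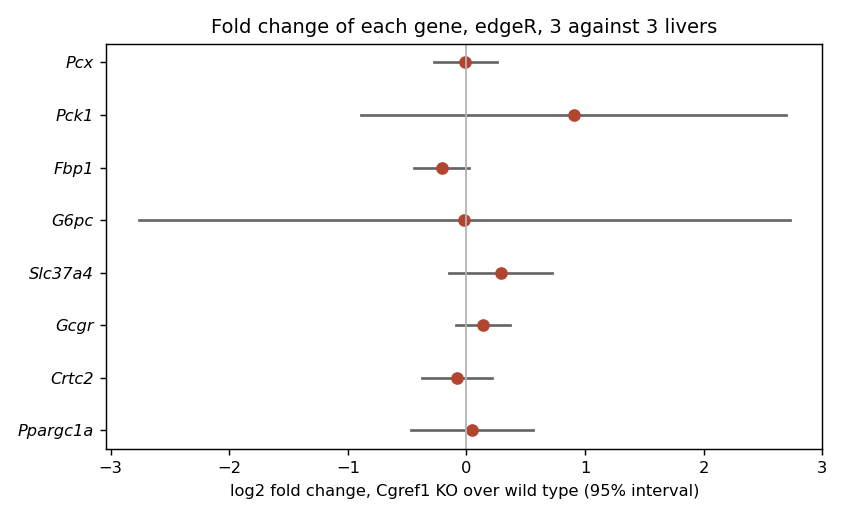
Log2 fold change of each gene, knockout-labelled over wild type (horizontal axis), as points with 95% confidence intervals from edgeR, 3 livers in each group. Every interval includes 0; those of G6pc (-2.76 to 2.73) and Pck1 (-0.89 to 2.70) are the widest of the 8, and that of Fbp1 reaches from -0.44 to 0.02.

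Of the regulators, Gcgr (chr11:120526855-120538989) encodes the glucagon receptor, a G protein-coupled receptor of hepatocytes. Gcgr stood at 156.4, 143.1 and 164.2 CPM in the knockout-labelled livers and at 134.0, 154.3 and 133.3 CPM in the wild type livers. The groups overlapped through wild type replicate 2 and knockout-labelled replicate 2. Its log2 fold change was 0.14 (SE 0.10, interval -0.09 to 0.36; edgeR adjusted p 0.984).

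Crtc2 (chr3:90253863-90264125) encodes the CREB coactivator that enters the nucleus on glucagon signalling and is held in the cytosol by salt-inducible kinases. Crtc2 stood at 23.3, 20.7 and 18.7 CPM in the knockout-labelled livers and at 24.6, 22.1 and 19.5 CPM in the wild type livers. The groups overlapped, and replicate 3 was the lowest liver of each. Its log2 fold change was -0.08 (SE 0.13, interval -0.37 to 0.21; edgeR adjusted p 0.990). CRTC2 is controlled mainly by phosphorylation and location, which messenger RNA levels do not show.

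Ppargc1a (chr5:51454249-52116058 in the deposited table) encodes a transcriptional coactivator that fasting is known to induce in liver. The deposited table lists it on the plus strand, whereas GENCODE M21 and RefSeq place it on the minus strand. Ppargc1a was the scarcest of the 8, with 122, 106 and 70 counts in the knockout-labelled livers and 111, 101 and 93 counts in the wild type livers. These gave 7.11, 6.16 and 3.86 CPM in the knockout-labelled livers and 6.13, 5.37 and 5.07 CPM in the wild type livers. Knockout-labelled replicate 3, the liver of its group with the most G6pc, Pck1 and Slc37a4, had the least Ppargc1a of the 6. The log2 fold change was 0.05 (SE 0.23, interval -0.47 to 0.56; edgeR adjusted p 0.994). Its sign turned under some scalings (-0.04 with library totals only) and without single livers (-0.14 to 0.27). None of the 8 genes had exons overlapping those of another gene in GENCODE M21.

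Levels of different genes were set side by side in TPM, the authors' values per transcript length. Fbp1 and Pck1 led, with 863 ± 61 TPM for Fbp1 in knockout-labelled and 1094 ± 77 TPM in wild type livers, and with 1218 ± 148 TPM for Pck1 in knockout-labelled and 721 ± 539 TPM in wild type livers (SD, n = 3 for each here). In each knockout-labelled liver Pck1 lay above Fbp1, whereas the wild type range of Pck1, 189.8 to 1268 TPM, enclosed that of Fbp1. Next came Pcx, with 136 ± 26 TPM in knockout-labelled and 150 ± 1.6 TPM in wild type livers, and Slc37a4, with 135 ± 25 TPM in knockout-labelled and 121 ± 30 TPM in wild type livers. G6pc had 116 ± 65 TPM in knockout-labelled and 131 ± 152 TPM in wild type livers, and Gcgr 111 ± 11 TPM in knockout-labelled and 109.9 ± 10.6 TPM in wild type livers. Among Pcx, Slc37a4, G6pc and Gcgr, neighbours in this order differed by less than the larger of their SDs. Crtc2 followed at 10.99 ± 1.4 TPM in knockout-labelled and 12.7 ± 1.2 TPM in wild type livers. Ppargc1a was last at 1.18 ± 0.37 TPM in knockout-labelled and 1.23 ± 0.097 TPM in wild type livers, and its range did not meet that of Crtc2 in either genotype. The other isozymes were scarce: Pck2, the mitochondrial carboxykinase, had 0.69 to 1.07 TPM in knockout-labelled and 0.71 to 1.02 TPM in wild type livers, and G6pc3, the widely expressed phosphatase, had 3.23 to 4.13 TPM in knockout-labelled and 3.11 to 4.60 TPM in wild type livers.

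The spread between livers of the same genotype was measured as the pooled within-group SD of log2 CPM over the 6 livers. G6pc had an SD of 1.33 and Pck1 one of 0.98, which placed them at the 99.7th and 99.0th percentile of the 12033 genes tested, where the median SD was 0.19. For G6pc both groups were wide, with coefficients of variation of CPM of 56.2% in knockout-labelled and 115% in wild type livers. For Pck1 the spread lay mostly in the wild type group, with 11.7% in knockout-labelled and 74.0% in wild type livers. Counted from the widest, G6pc ranked 32 and Pck1 ranked 119, and an SD of at least 0.9 was reached by 1.31% of the genes tested. Ppargc1a, at an SD of 0.33 on few counts, stood at the 79.9th percentile and Slc37a4, at 0.31, at the 76.3rd percentile. Crtc2 (SD 0.16), Pcx (0.15), Gcgr (0.11) and Fbp1 (0.095) lay between the 13.9th and the 41.3rd percentile. On the scale of log2(TPM + 1) the SDs of G6pc and Pck1 were 1.31 and 1.00.

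**Figure D3:**
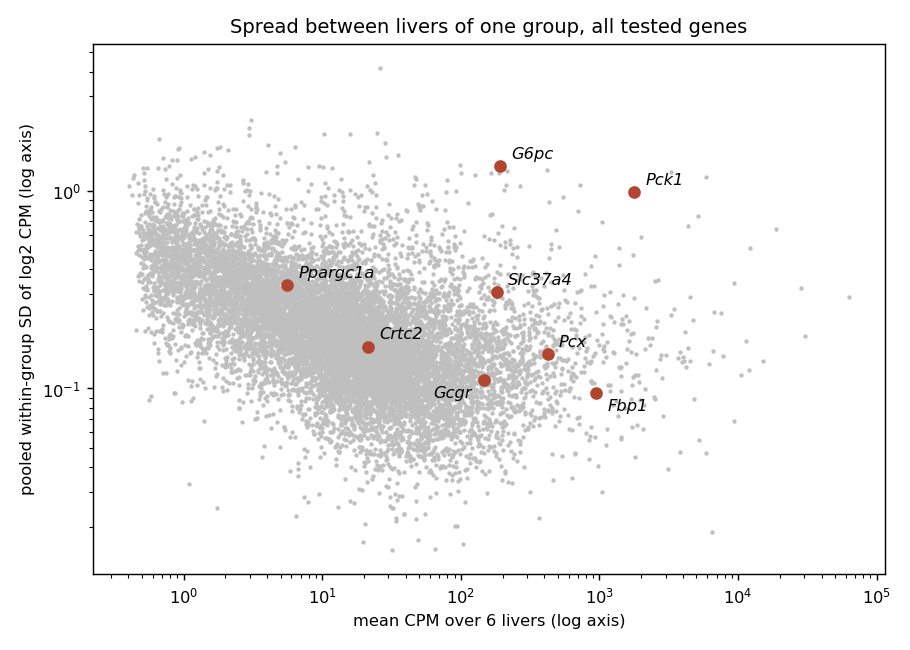
Pooled within-group SD of log2 CPM (vertical log axis) against mean CPM over the 6 livers (horizontal log axis) for the 12033 genes tested (grey) and the 8 gluconeogenesis genes and regulators (red). G6pc (SD 1.33) and Pck1 (SD 0.98) stand above most genes of like abundance, while Gcgr (0.11) and Fbp1 (0.095) lie low.

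Across the 6 livers, 28 pairs among the 8 genes were compared by correlation of log2 CPM, and none passed an exact permutation test after Benjamini-Hochberg adjustment over the 28. The closest pair was Pck1 and Slc37a4, with Pearson's r = 0.91 (exact two-sided permutation p 0.00278, adjusted 0.0583; n = 6) and Spearman's rho = 0.94 (exact permutation p 0.0167, adjusted 0.233). Without wild type replicates 1 and 2, the livers farthest from the median of Pck1, r was 0.95. Slc37a4 and Crtc2 ran opposite to each other, with r = -0.91 (exact permutation p 0.00417, adjusted 0.0583; n = 6) and rho = -0.94 (exact permutation p 0.0167, adjusted 0.233), and r = -0.88 without the pair of livers farthest from the median of Slc37a4. Pck1 and G6pc, the pair of genes that hormones are known to move together, had r = 0.58 (exact permutation p 0.203, adjusted 0.473; n = 6) and rho = 0.77 (exact permutation p 0.103, adjusted 0.36), with r = 0.44 without the pair of livers farthest from the median of G6pc. Knockout-labelled replicate 1 shows the difference: its Pck1 (2157 CPM) was near that of wild type replicate 3 (2176 CPM), whereas its G6pc (83.1 CPM) was near that of wild type replicate 1 (75.3 CPM).

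Among the other 12032 genes tested, those whose log2 CPM followed G6pc most closely over the 6 livers were Nck1 (r = 0.99, rho = 0.94), Pfkfb1 (r = 0.99, rho = 1) and Cib3 (r = 0.99, rho = 1). Nck1 encodes a signalling adaptor. Pfkfb1 encodes the hepatic enzyme that makes and breaks down a signalling form of fructose bisphosphate, which is not the form that the Fbp1 enzyme cleaves. Pfkfb1 stood at 28.2, 33.1 and 38.4 CPM in the knockout-labelled livers and at 28.2, 23.8 and 42.1 CPM in the wild type livers, the same order as G6pc. Those closest to Pck1 were Sema3f (r = 0.99, rho = 0.94), Ddah2 (r = 0.99, rho = 0.49) and Rack1 (r = 0.99, rho = 0.83). With 6 livers and so many genes searched, high values of r arise readily, and these names describe likeness only.

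Genes known to rise in fasting were also uneven from liver to liver, though not all in the same livers, and their median SD within a group was 0.60. Of 24 listed fasting-induced genes 19 were tested, 0 passed in either direction, 12 had positive and 7 negative log2 fold changes, and the median was 0.13; at an unadjusted p under 0.05, 2 were higher and 0 lower, where 2.95% of all genes tested were higher and 2.2% lower. These were Cpt1a, the gene for the enzyme that admits fatty acids to mitochondria, at 374 ± 20 CPM in knockout-labelled and 294 ± 39 CPM in wild type livers (log2 fold change 0.35, edgeR adjusted p 0.903), and Asns, asparagine synthetase, at 4.33 ± 2.24 CPM in knockout-labelled and 1.78 ± 0.62 CPM in wild type livers (1.28, edgeR adjusted p 0.918; SD, n = 3). The cyclic AMP-responsive kinase gene Sik1 stood at 8.28, 13.5 and 21.1 CPM in the knockout-labelled livers and at 3.37, 9.67 and 16.9 CPM in the wild type livers. The FOXO1 target Igfbp1 stood at 15.0, 10.2 and 18.6 CPM in the knockout-labelled livers and at 5.63, 1.91 and 11.3 CPM in the wild type livers. The tyrosine aminotransferase gene Tat, a glucocorticoid target, stood at 885.2, 872.8 and 1702 CPM in the knockout-labelled livers and at 630.8, 557.3 and 1578 CPM in the wild type livers. For Sik1, Igfbp1 and Tat, chosen as examples after their values were seen, replicate 3 was the highest liver of each group, as it was for G6pc, Pck1 and Slc37a4. That held for 8 of the 19 fasting-induced genes tested, while in 4 of the 19 replicate 1 was the highest liver of each group and in 1 replicate 2 was. The share of all genes tested with such a pattern was not computed, so these counts mark no trait of the list. Over all genes tested, deviations from the group means also correlated between livers of the same number (0.28, 0.06 and 0.35 for replicates 1, 2 and 3). Cyp4a14, a fatty acid hydroxylase gene of the list also chosen after its values were seen, ran the other way, with 496.5, 179.3 and 50.6 CPM in the knockout-labelled livers and 920.2, 351.7 and 517.0 CPM in the wild type livers.

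Genes listed as feeding-induced lay mostly on the lower side in the knockout-labelled livers. Of 19 listed, 17 were tested, 0 passed in either direction, 16 were negative and 1 positive, and the median log2 fold change was -0.54, against -0.0022 over all genes tested; at an unadjusted p under 0.05, 8 of the 17 were lower and 1 higher, where 2.2% of all genes tested were lower and 2.95% higher. Acacb and Acaca, the acetyl-CoA carboxylase genes, had the smallest p-values, with log2 fold changes of -0.81 (edgeR adjusted p 0.341) and -0.56 (adjusted p 0.405), and the desaturase gene Scd1 was the most abundant (-1.08, adjusted p 0.608). DESeq2 called these 3 genes, with adjusted p 0.00837 for Acaca, 0.00044 for Acacb and 0.000175 for Scd1. It called 31 of all 15953 genes. With the replicate number as a block edgeR called Acacb (adjusted p 0.0115) and Scd1 (adjusted p 0.0249) and not Acaca (adjusted p 0.0635). That fit called 34 of all 12033 genes tested. Calls of the other genes of the list in these fits are not reported here. The list was chosen with results of these data known, so its direction is no independent evidence.

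**Figure D4:**
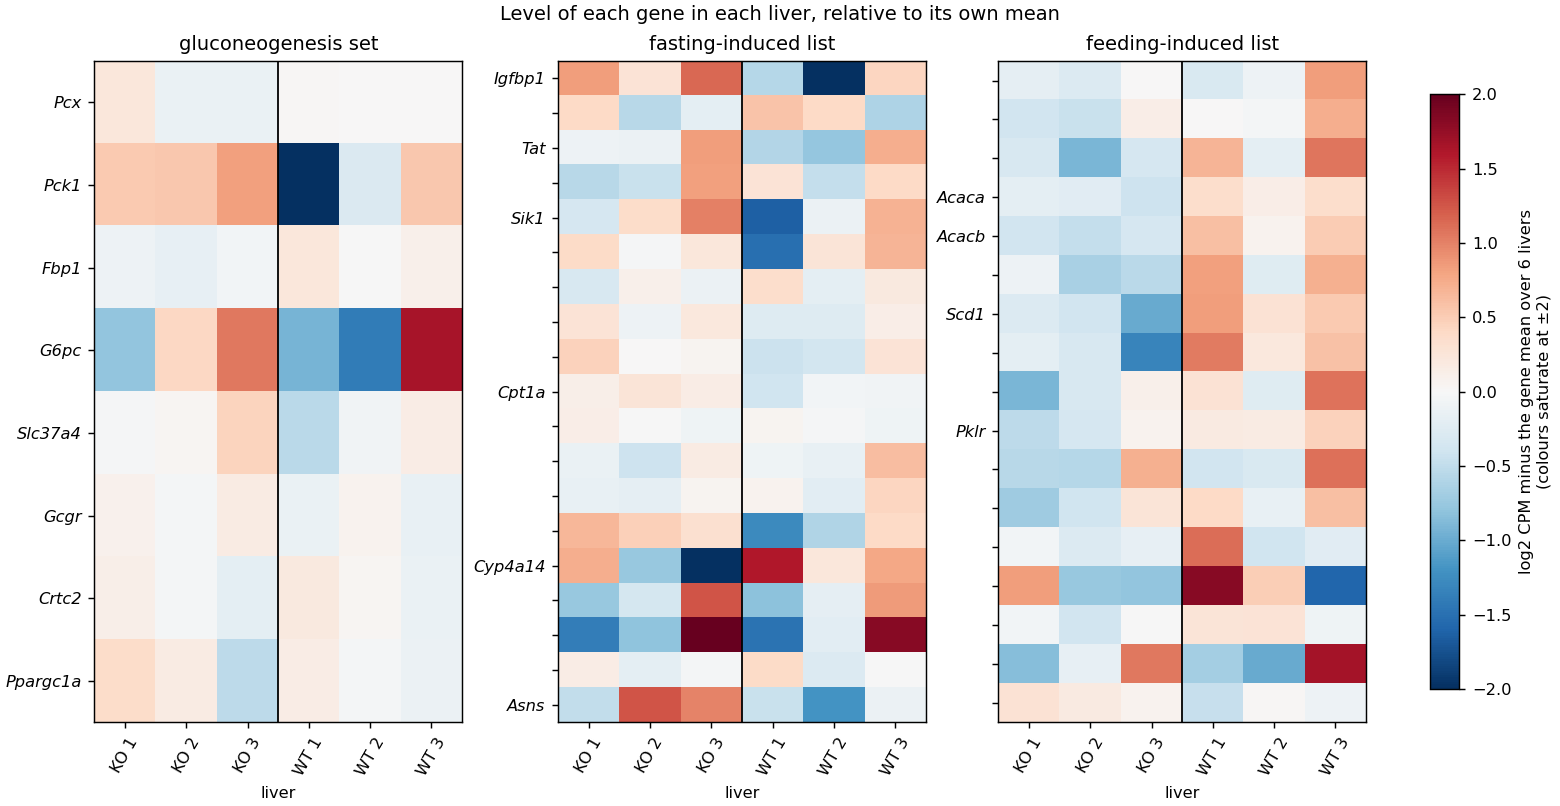
Log2 CPM of each gene minus its own mean over the 6 livers (colour, saturating at ±2) for the gluconeogenesis genes, the tested fasting-induced genes and the tested feeding-induced genes (rows are labelled for genes named in the text); columns are knockout-labelled livers (KO 1 to 3, left of the line) and wild type livers (WT 1 to 3). Wild type replicate 1 is low in Pck1 (336.8 CPM) and Sik1 (3.37 CPM), and replicate 3 of both groups is high in G6pc (297.4 CPM in the knockout-labelled liver and 448.9 CPM in the wild type liver).

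Clock genes, whose levels follow the time of day, differed among the same livers. Nr1d1, the gene for the repressor REV-ERB alpha, which also acts on gluconeogenic genes, stood at 106.8, 40.8 and 30.1 CPM in the knockout-labelled livers and at 186.4, 77.9 and 30.8 CPM in the wild type livers, a wide difference within each group. Cry1 stood at 6.00, 9.18 and 13.3 CPM in the knockout-labelled livers and at 3.64, 7.44 and 14.7 CPM in the wild type livers. These 2 genes were chosen as examples after their values were seen, and not all clock genes followed either of them: Dbp stood at 198.3, 131.5 and 109.8 CPM in the knockout-labelled livers and at 126.6, 190.7 and 99.8 CPM in the wild type livers. Of the 14 clock genes 3 had replicate 3 and 3 had replicate 1 as the highest liver of each group, and the share over all genes tested was not computed. Of these 14, listed after the values were seen, 0 passed between the genotypes and 0 had an unadjusted p under 0.05, with 10 positive and 4 negative and a median log2 fold change of 0.12; their median SD within a group was 0.42, that of all genes tested 0.19. The part of the time of day in the spread of Pck1 and G6pc was not tested.

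The reversible steps that gluconeogenesis shares with glycolysis did not differ past the threshold. Of 10 genes tested 0 passed in either direction, 0 had an unadjusted p under 0.05, 3 were positive and 7 negative, with a median log2 fold change of -0.06 and a range of -0.18 to 0.04. Gapdh, the gene for glyceraldehyde phosphate dehydrogenase, had a log2 fold change of -0.18. The median SD within a group was 0.10 for these genes.

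Genes that bring substrate to the pathway were likewise 0 of 25 past the threshold, with 8 positive, 17 negative and a median log2 fold change of -0.04. At an unadjusted p under 0.05, 2 were higher and 0 lower, where 2.95% of all genes tested were higher and 2.2% lower. These were Slc25a12, a mitochondrial aspartate-glutamate carrier gene, at 20.5 ± 0.47 CPM in knockout-labelled and 16.9 ± 1.2 CPM in wild type livers (log2 fold change 0.28, edgeR adjusted p 0.926), and Aqp9, the glycerol channel gene of hepatocytes, at 497 ± 15 CPM in knockout-labelled and 421 ± 39 CPM in wild type livers (0.24, edgeR adjusted p 0.944; SD, n = 3). Slc38a3, the glutamine transporter gene and the most abundant of the list, had a log2 fold change of -0.02.

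Of 6 genes for opposing glycolytic steps 0 passed, with 1 positive, 5 negative and a median of -0.10. Pklr, which encodes liver pyruvate kinase and is under the control of insulin and carbohydrate, stood at 212.2, 242.2 and 320.1 CPM in the knockout-labelled livers and at 346.2, 344.7 and 419.5 CPM in the wild type livers. The groups did not overlap, as in 4.63% of all genes tested with the knockout-labelled livers lower and 10.8% in either direction, and the log2 fold change was -0.52 (SE 0.16; edgeR adjusted p 0.850). It was the 1 gene of the list with an unadjusted p under 0.05, and it was already counted among the lower feeding-induced genes above.

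Along the signalling route, 0 of 23 tested glucagon and cyclic AMP genes passed (9 positive, 14 negative, median log2 fold change -0.04). Creb3l3, the gene for a liver transcription factor of the CREB family, was the 1 gene of these with an unadjusted p under 0.05, at 308 ± 5.4 CPM in knockout-labelled and 247 ± 24 CPM in wild type livers (SD, n = 3; log2 fold change 0.32, edgeR adjusted p 0.856). Ep300, a histone acetyltransferase gene, had -0.16, and Gnas, the stimulatory G protein gene and the most abundant of the list, had -0.01. Of 14 genes that restrain CRTC2 or belong to the AMP kinase, 0 passed (5 positive, 9 negative, median -0.08), among them Sik2 with -0.19, Usp7 with -0.11 and Prkaa2 with -0.08. Of 16 transcription factor genes that act at gluconeogenic promoters, 0 passed (10 positive, 6 negative, median 0.08). Foxo1 stood at 54.0 ± 4.8 CPM in knockout-labelled and 44.3 ± 7.9 CPM in wild type livers (SD, n = 3; log2 fold change 0.28, edgeR adjusted p 0.968) and Hnf4a had 0.04. Of 11 insulin signalling genes 0 passed (6 positive, 5 negative, median 0.01), with 0.18 for Akt1 and -0.17 for Irs1. Of the isozyme genes 2 were tested and 0 passed, Pck2 with 0.24 and G6pc3 with 0.13. In these last 4 lists edgeR gave 0 genes with an unadjusted p under 0.05.

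The small intestine also expresses Pck1 and G6pc, and traces of intestinal transcripts were uneven. All 26 intestinal markers were in the table, and 5 of them passed the filter on low counts. The 26 summed to 97.3 to 153.6 CPM in knockout-labelled and 156.0 to 310.7 CPM in wild type livers. In counts these sums were 1766 to 2634 in knockout-labelled and 2936 to 5629 in wild type livers, and Fabp2 and Sucnr1 made up most of them. Without these most abundant genes, set aside after their values were seen, the other 24 together had 58, 72 and 92 counts in the knockout-labelled livers and 278, 80 and 557 counts in the wild type livers. These sums were thus highest in wild type replicate 3, the liver with the most G6pc, and in wild type replicate 1, the liver with the least Pck1. Without both of these livers the log2 fold change was 0.92 for Pck1 and 1.79 for G6pc. These are values against a single wild type liver, replicate 2, for which the spread would come from the knockout-labelled livers alone, so no p is given. The part of intestinal transcripts in these values was not tested. The remaining markers overlapped between the genotypes for blood (1763 to 2757 CPM in knockout-labelled and 2109 to 3518 CPM in wild type livers), for endothelial and stellate cells (446.7 to 477.0 CPM in knockout-labelled and 447.7 to 552.1 CPM in wild type livers) and for pancreas (25.8 to 27.5 CPM in knockout-labelled and 15.8 to 27.5 CPM in wild type livers). Cholangiocyte markers summed to 52.1 to 54.2 CPM in knockout-labelled and 46.8 to 49.5 CPM in wild type livers, without overlap, as for the Kupffer cell markers.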

How the data were processed

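The study sequenced messenger RNA of 3 Cgref1 knockout and 3 wild type livers. Per the submitters' processing notes the authors used HISAT, Bowtie2, RSEM and DESeq2; their versions and settings and the strandedness are not stated. For each gene and liver the authors deposited expected counts, which are not normalized, and TPM and FPKM values scaled for depth and length, per the file headers. All 15860 genes matched to the reference annotation on GRCm38 lay on the same chromosome there, and 8627 starts were equal. A further 18 columns of group means or comparisons were not used, among them 6 with group means and 9 with comparisons of single livers.

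Expected counts were rounded. Genes were kept by filterByExpr (minimum count 10), scaled by TMM and compared with edgeR 4.0.16 (R 4.3.3), robust quasi-likelihood, no block, Benjamini-Hochberg adjustment, threshold 0.05. Log2 CPM used a prior count of 2. Intervals are at 95%. Steps were tested on simulated data. Alternatives were 2 scalings, 2 filters, DESeq2 1.42.0, limma 3.58.1 on voom values and on log2 of TPM or FPKM (pseudocount 1 or 0.1), a replicate block and livers left out.

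The members and lists were chosen with earlier results of these data known. Named genes are the 8 members, Cgref1, in each pathway list the 2 genes with the smallest p and the most abundant one, and the 3 genes most like G6pc and Pck1; others are examples chosen after their values were seen. Not all genes chosen in this way are reported here. In the figures and text "knockout-labelled" follows the labels.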

Additional observations from a re-analysis of the deposited data

How the results depend on the processing

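Across 17 alternatives 0 of the 8 gluconeogenesis genes passed the threshold in each, and Pck1, Slc37a4, Fbp1 and Crtc2 kept their sign. At an unadjusted p under 0.05, Fbp1 was lower with library totals only, on log2 of TPM or FPKM and without wild type replicate 2. Slc37a4 was higher with the replicate block (edgeR unadjusted p 0.0145). The fit with a single wild type liver is left out of these. Among all 12033 genes tested, 620 were under 0.05 in the main fit, in either direction. That count was 877 with library totals only, 1160 on log2(TPM + 1) and 876 on log2(FPKM + 1). It was 1146 on log2(TPM + 0.1) and 1039 with the replicate block. The count of all genes past the threshold, 1 here, was 31 with DESeq2, 34 with the replicate block, 0 at a mean of at least 5 CPM (a filter that removes the gene called) and 0 without wild type replicates 1 and 3 together, where the lone wild type liver is assumed to vary like the knockout-labelled livers; without single livers it was 1 to 5.

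Livers with the same replicate number had correlations of their deviations from the group means of 0.28, 0.06 and 0.35, and each liver correlated best with its own number, a hint from the data and not from the design. Under the replicate block G6pc had a log2 fold change of 0.42 and Pck1 one of 1.24.

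Signs turned as follows; the cause was not tested. G6pc had 0.45 by limma-voom, 0.31 on log2(TPM + 1), 0.36 on log2(FPKM + 1), 0.31 on log2(TPM + 0.1), 1.79 without wild type replicates 1 and 3 and -0.49 to 1.56 without single livers. The TPM scale shifts the median of all genes to -0.11 (pseudocount 1) or -0.13 (0.1). That median was -0.084 with library totals only and -0.059 on log2(FPKM + 1). With library totals only, on log2(TPM + 1), log2(FPKM + 1) and log2(TPM + 0.1) in turn, Ppargc1a had -0.036, -0.051, -0.022 and -0.10, Hnf4a had -0.043, -0.086, -0.034 and -0.087, and Nck1 had -0.052, -0.093, -0.043 and -0.10. Rack1 had -0.0021 on both TPM scales. Without wild type replicates 1 and 3 together, Gcgr had -0.010, Akt1 had -0.0011 and Irs1 had 0.13. Without single livers Ppargc1a ranged from -0.14 to 0.27, Pcx from -0.14 to 0.054, Hnf4a from -0.042 to 0.15, Nck1 from -0.044 to 0.16, Prkaa2 from -0.17 to 0.00087, Gnas from -0.059 to 0.034, Slc38a3 from -0.15 to 0.074, Cib3 from -0.17 to 1.06, Pfkfb1 from -0.074 to 0.36 and Irs1 from -0.31 to 0.022. The spread of Ppargc1a was 0.18 on log2(TPM + 1). With 3 livers a group, the intervals of G6pc and Pck1 include differences in both directions. What size of difference could be detected was not computed.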
